A study of Caenorhabditis elegans with 12 samples.

Results

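Antisense small RNAs of 4 protein-coding genes, henn-1, ahcy-1, icmt-1 and R53.5, were followed in Caenorhabditis elegans strains that carried or lacked the dsRNA-binding protein RDE-4. These are 4 of 32238 genes in the count tables. They were selected on their antisense counts, which stood higher in age-1 mutants than in wild type (WT), so their values in that comparison are a description. The samples were 12 small RNA libraries from whole young adult hermaphrodites that held no embryos yet, kept at 20 °C with OP50 bacteria as food. The strains were the age-1(hx546); rde-4(ne301) double mutant, age-1(hx546), rde-4(ne301) and WT (N2), with 3 libraries each from separate populations. rde-4(ne301) is a null allele, and age-1(hx546) mildly lowers insulin/IGF-1 signaling. The mutations act in the whole animal. The library method favored RNAs with a 5′ monophosphate, with inserts of 18 to 40 bp.

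RDE-4 works with Dicer to cut dsRNA into primary small interfering RNAs (siRNAs). In worms, endogenous primary siRNAs are loaded into the Argonaute ERGO-1 or, during spermatogenesis, into ALG-3 and ALG-4, and lie antisense to the mRNAs they act on. The protein of age-1 is the PI3K of insulin/IGF-1 signaling. A count of antisense reads measures small RNAs against a gene, not the gene's mRNA or protein, so the counts of rde-4 and age-1 themselves do not check the strain labels.

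Of the 4 genes, henn-1, ahcy-1 and icmt-1 act in methylation. HENN-1 is the methyltransferase that methylates the 3′ ends of piRNAs and of ERGO-1-bound primary siRNAs, and so protects them. AHCY-1 breaks down S-adenosylhomocysteine, the by-product of every methyl transfer from S-adenosylmethionine. Enzymes of the ICMT family, as known from yeast and mammals, methylate the prenylated C-terminal cysteine of CAAX proteins such as Ras and lamins. R53.5 has no named role in the annotations used here.

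In build WBcel235, henn-1 (C02F5.6) lies on the plus strand of chromosome III at 8232651 to 8234611. ahcy-1 (K02F2.2) lies on the plus strand of chromosome I at 6836469 to 6838140, and icmt-1 (F21F3.3) on the same strand of that chromosome at 4901918 to 4903264. R53.5 lies on the minus strand of chromosome II at 9969620 to 9970488. The counted lengths were 1529, 1630, 1132 and 846 bases for henn-1, ahcy-1, icmt-1 and R53.5. ahcy-1 and icmt-1 have no annotated exon on the opposite strand. henn-1 shares 86 exon bases with the opposite-strand gene C02F5.14, whose own antisense counts summed to 0 in age-1; rde-4, 1 in age-1, 2 in rde-4 and 0 in WT. R53.5 shares 11 with psf-1, whose antisense counts summed to 8 in age-1; rde-4, 11 in age-1, 12 in rde-4 and 15 in WT. The sense reads of C02F5.14 and psf-1 in these overlaps would be counted as antisense to henn-1 and R53.5.

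The libraries held 2449703 to 3590005 antisense counts each. Most lay opposite miRNA genes, on average 62.5% in age-1; rde-4, 70.4% in age-1, 69.0% in rde-4 and 79.5% in WT. Genes with no annotated opposite-strand exon took 2.88% ± 0.298, 10.8% ± 0.934, 4.72% ± 0.376 and 8.14% ± 1.66 of the counts in the same order of strains (mean ± SD, n = 3 each). Antisense counts of 7 known ERGO-1 targets, which depend on RDE-4, summed to 1.00 to 3.76 CPM (counts scaled to a library total of 1000000) in the age-1; rde-4 libraries and 3.67 to 16.98 in rde-4, against 358 to 552 in age-1 and 417 to 799 in WT. One age-1 library, replicate 2, had 23.9% of its counts opposite tRNA genes, and the lowest age-1 library had 5.64%.

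In the raw counts, icmt-1 showed the widest contrast between strains. Its counts were 13, 9 and 9 in the age-1; rde-4 libraries, 78, 121 and 58 in age-1, 6, 9 and 2 in rde-4, and 0, 5 and 5 in WT. Every age-1 library stood above all 9 others, as the choice of the genes favors. How many of all genes showed such separations between strains was not counted, here or below. The count of 0 in WT replicate 1 allows up to 1.09 CPM, the level of 3 counts in that library.

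Counts of ahcy-1 were 29, 33 and 18 in age-1; rde-4, 142, 199 and 153 in age-1, 38, 13 and 22 in rde-4, and 10, 18 and 13 in WT. The age-1 libraries again did not overlap any other, whereas the double mutant and rde-4 libraries overlapped. Counts of R53.5 were 2, 3 and 9 in age-1; rde-4, 52, 98 and 59 in age-1, 4, 5 and 4 in rde-4, and 3, 9 and 8 in WT. Outside age-1, R53.5 had at most 9 reads in a library, and the strains overlapped.

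In WT, henn-1 and ahcy-1 had about as many antisense reads, 42 and 41 in all. The henn-1 counts were 3, 4 and 5 in age-1; rde-4, 36, 80 and 49 in age-1, 4, 9 and 5 in rde-4, and 18, 14 and 10 in WT. The double mutant and rde-4 libraries overlapped each other and lay below all WT libraries in raw counts, which lay below all age-1 libraries.

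**Figure D1:**
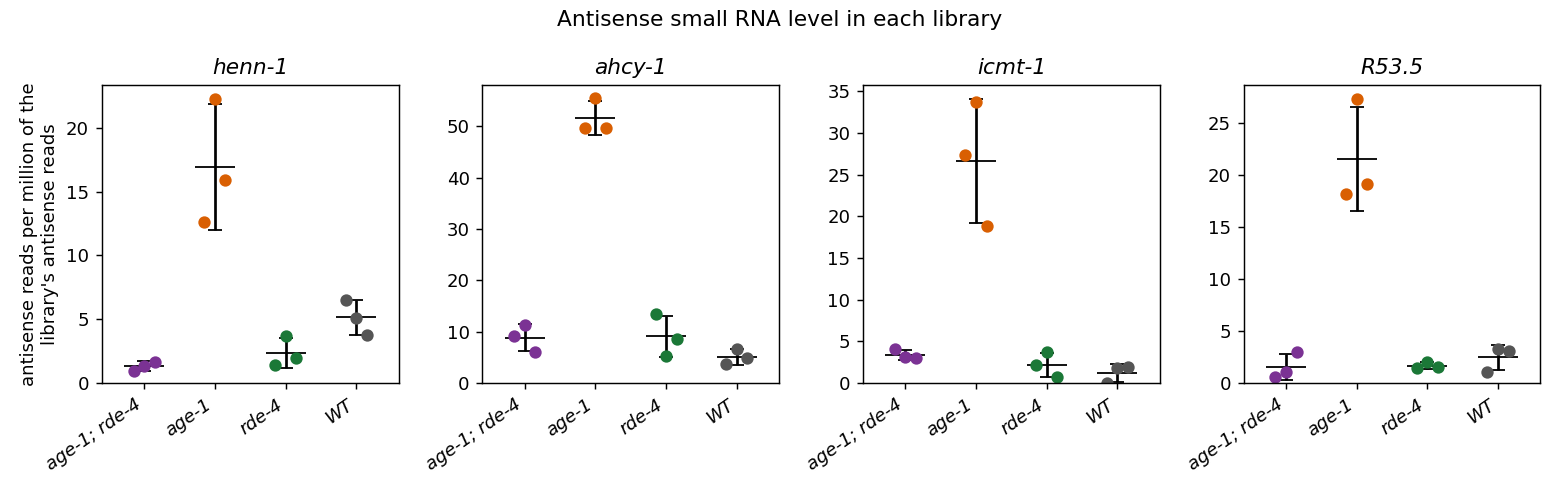
Antisense CPM of the 4 genes, scaled by library totals, 1 panel per gene, with 1 point per library and the mean ± SD of 3 libraries per strain. The age-1 libraries lie above those of age-1; rde-4, rde-4 and WT for each gene, and the WT points of henn-1 lie above its points in age-1; rde-4 and rde-4.

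Scaled by library totals, ahcy-1 averaged 8.78 ± 2.64 in age-1; rde-4, 51.6 ± 3.30 in age-1, 9.06 ± 4.07 in rde-4 and 5.04 ± 1.49 CPM in WT (SD, n = 3 each, as for the values that follow). icmt-1 averaged 3.38 ± 0.590 in age-1; rde-4, 26.6 ± 7.45 in age-1, 2.19 ± 1.45 in rde-4 and 1.24 ± 1.08 CPM in WT. Both genes were highest in age-1. The libraries of the 3 other strains overlapped on this scale, except that the icmt-1 values of the double mutant stood above all of WT. R53.5 averaged 1.55 ± 1.28 in age-1; rde-4, 21.6 ± 4.99 in age-1, 1.66 ± 0.333 in rde-4 and 2.47 ± 1.21 CPM in WT. henn-1 averaged 1.32 ± 0.368 in age-1; rde-4, 16.9 ± 4.92 in age-1, 2.34 ± 1.19 in rde-4 and 5.142 ± 1.36 CPM in WT. For R53.5 the libraries of the 3 lower strains overlapped. For henn-1 those of WT lay between age-1 and the overlapping rde-4 and double mutant libraries. With TMM scaling, the henn-1 values of WT overlapped those of both rde-4 and the double mutant. With counts opposite miRNA genes as the library size, they overlapped those of rde-4 only.

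In CPM per kilobase of counted length, the age-1 levels were 11.1 for henn-1, 31.7 for ahcy-1, 23.5 for icmt-1 and 25.5 for R53.5. The WT levels on that scale were 3.36, 3.09, 1.097 and 2.92 for the same genes. The 4 genes were also ranked by TMM-scaled CPM per kilobase among 3874 genes that had no opposite-strand exon or belonged to the 4. On this ranking, ahcy-1 stood above 85.2% of genes in age-1 and 37.3% in WT, and icmt-1 above 81.3% in age-1 and 4.62% in WT. R53.5 stood above 82.1% in age-1 and 33.5% in WT, and henn-1 above 69.0% in age-1 and 43.99% in WT. The 4 genes thus lay below the middle of the ranking in WT and above it in age-1, as their choice favors.

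The comparison that chose the genes, age-1 with WT, is given here without a test for them. All 4 passed the low-count filter in it. With edgeR and TMM scaling, the log2 fold change was 4.39 for icmt-1 (SE 0.58, 20.97-fold higher in age-1), 3.28 for ahcy-1 (SE 0.36, 9.73-fold), 3.08 for R53.5 (SE 0.44, 8.48-fold) and 1.59 for henn-1 (SE 0.44, 3.01-fold). By fold change they ranked 2, 3, 6 and 101 of 5000 genes, whose median was -0.17. Scaling by library totals gave 4.39, 3.35, 3.11 and 1.71. Of these 5000 genes, 383 (7.66%) rose and 164 (3.28%) fell at an adjusted p below 0.05, 547 (10.9%) together. With the replicate number as a block, 1956 genes (39.1%) were called, and the count without a block ran from 9 without age-1 replicate 2 and 11 without age-1 replicate 1 to 1925 without age-1 replicate 3. Leaving out WT replicate 1, 2 or 3 gave 34, 231 or 96 calls.

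To ask whether these small RNAs need RDE-4 in the age-1 background, age-1; rde-4 was compared to age-1. Antisense small RNAs of all 4 genes were lower in the double mutant, by 5.66-fold for R53.5, 5.15-fold for henn-1, 3.12-fold for icmt-1 and 2.32-fold for ahcy-1 with TMM scaling, and by 13.7-fold, 12.5-fold, 7.79-fold and 5.86-fold when counts were scaled by library totals. No double mutant library reached the lowest age-1 library for any of the 4, in raw counts or after either scaling. How many of all genes were separated in this way was not counted, so the separation does not set the 4 apart from other genes. The age-1 libraries were the high side of the comparison that chose the genes, so a lower value here is favored by that choice. In addition, henn-1, icmt-1 and R53.5 entered this fit through their age-1 counts. Without age-1 libraries, ahcy-1 passed the filter in each comparison, and henn-1 in those of rde-4 and of age-1; rde-4 with WT. These values are therefore a description, with no test for the 4 genes. Over all genes, 1964 of 4003 (49.1%) were called, 1201 (30.0%) lower and 763 (19.1%) higher.

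In the edgeR fit with TMM scaling, the log2 fold change was -2.50 for R53.5 (SE 0.53), -2.36 for henn-1 (SE 0.52), -1.64 for icmt-1 (SE 0.45) and -1.22 for ahcy-1 (SE 0.38). R53.5 had 11.8% of tested genes below it by fold change, henn-1 13.4%, icmt-1 22.7% and ahcy-1 29.7%. With library totals the log2 fold changes were -3.77, -3.65, -2.96 and -2.55, and 51.9% of genes fell.

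The scalings place the whole set of genes differently. The median log2 fold change of all genes was 0.02 with TMM, -1.32 with library totals and -1.12 when counts opposite miRNA genes served as the library size. Under the last scaling the log2 fold changes were -3.65 for R53.5, -3.53 for henn-1, -2.83 for icmt-1 and -2.41 for ahcy-1, where 49.4% of genes fell. With TMM, the ahcy-1 value was -1.03 without age-1; rde-4 replicate 3 and -0.90 when genes with an opposite-strand exon were removed.

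**Figure D2:**
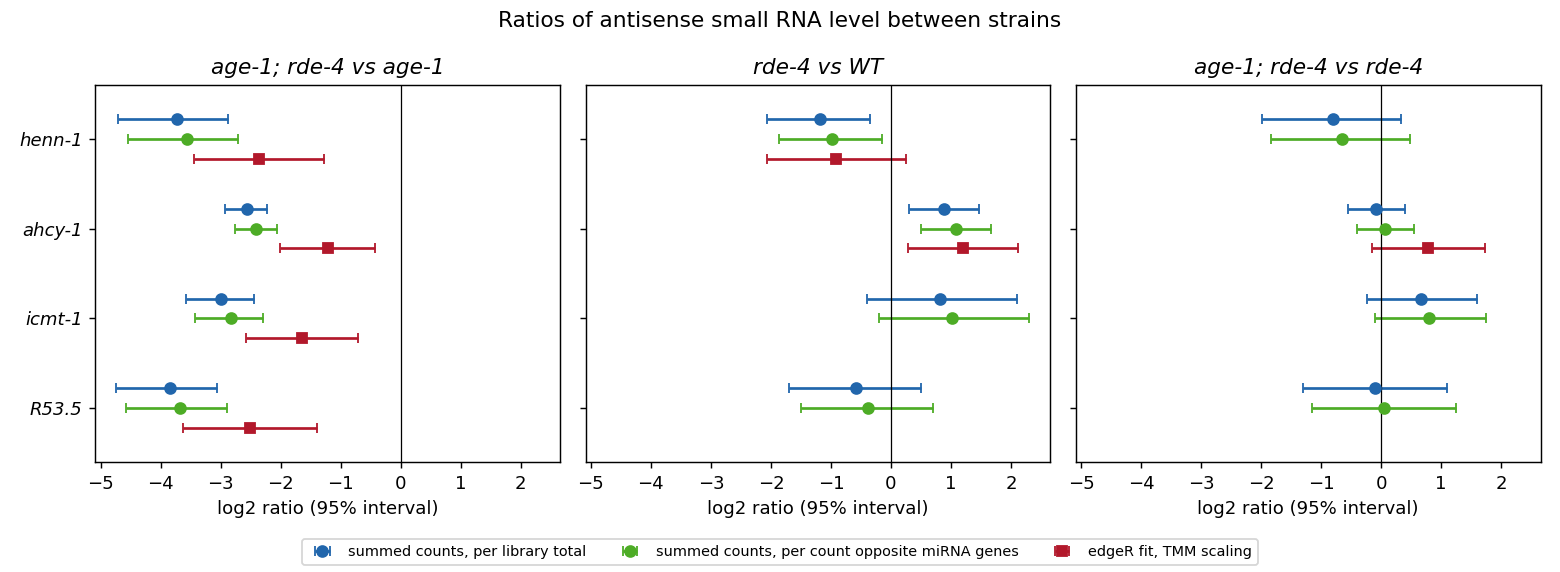
Log2 ratios of antisense small RNA level for the 4 genes in age-1; rde-4 versus age-1, rde-4 versus WT and age-1; rde-4 versus rde-4. Circles are ratios of summed counts per library total or per count opposite miRNA genes with exact 95% counting intervals, and squares are edgeR fits with their 95% intervals where the gene passed the low-count filter. In the first panel the points lie below 0, and in the third each interval includes 0.

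In whole worms, fewer cells of a type and fewer small RNAs per cell cannot be told apart. Antisense counts of 18 sperm marker genes, which are made during spermatogenesis, summed to 46.1 to 62.2 CPM in age-1; rde-4 and 62.9 to 89.1 in rde-4, against 572 to 676 in age-1 and 183 to 419 in WT, and none was at 0 over a strain. Of 15 tested in age-1; rde-4 versus age-1, 10 fell, beside 30.0% of all genes. In age-1 versus WT, 3 of 15 rose, 11 of 15 with the replicate block, and DESeq2 called 9 of 18 higher. In these comparisons the markers stood lower in the double mutant and higher in age-1, as the 4 genes did. In rde-4 versus WT, 9 of 15 markers fell (median -1.63), and the 4 genes had values in both directions. With TMM the log2 fold change was 1.21 for ahcy-1, a direction that the choice of the genes favors. It was -0.91 for henn-1 (95% interval -2.06 to 0.25). Ratios of summed counts per library total were 0.671 for R53.5 (counting interval 0.307 to 1.42) and 1.75 for icmt-1 (0.759 to 4.29). The part of these marker changes in the values of the 4 genes was not tested.

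The next question was whether RDE-4 loss acts the same way in a WT background. Antisense small RNAs of ahcy-1 were 2.31-fold higher in rde-4 than in WT with TMM scaling, and henn-1 had a lower value whose interval included 0. icmt-1 and R53.5 had too few reads in both strains to enter the fit. WT is the low side of the comparison that chose the genes, so a higher value in rde-4 is favored by that choice and is given without a test. Over all genes, 1283 of 4797 (26.7%) were called, 516 (10.8%) higher and 767 lower. With the replicate block, 1524 (31.8%) were called.

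For ahcy-1 the log2 fold change was 1.21 (SE 0.43) with TMM and 1.09 with the replicate block. It was 0.85 with library totals, 1.04 with counts opposite miRNA genes and 1.12 with DESeq2. Without rde-4 replicate 1, whose 38 reads were the most of that strain, it was 0.67.

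For henn-1 the log2 fold change in rde-4 versus WT was -0.91 (SE 0.54, 95% interval -2.06 to 0.25), and -1.14 with library totals. Its summed counts were 18 in rde-4 and 42 in WT, a ratio per library total of 0.442 with a counting interval of 0.240 to 0.785. Such intervals are exact 95% binomial ones and cover counting error only, so that they leave out the spread between populations. The ratio was 1.75 (0.759 to 4.29) for icmt-1, from 17 counts in rde-4 and 10 in WT. It was 0.671 (0.307 to 1.42) for R53.5, from 13 and 20. For these 2 genes a change in either direction was not detectable at this depth.

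The difference between the effect of RDE-4 loss in the age-1 background and in the WT background was taken from a fit of all 12 libraries. It was -2.83 for icmt-1 (SE 0.88), -2.46 for ahcy-1 (SE 0.61), -2.30 for R53.5 (SE 0.79) and -1.48 for henn-1 (SE 0.75) on the log2 scale. This difference contains the comparison that chose the genes and was therefore not tested.

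**Figure D3:**
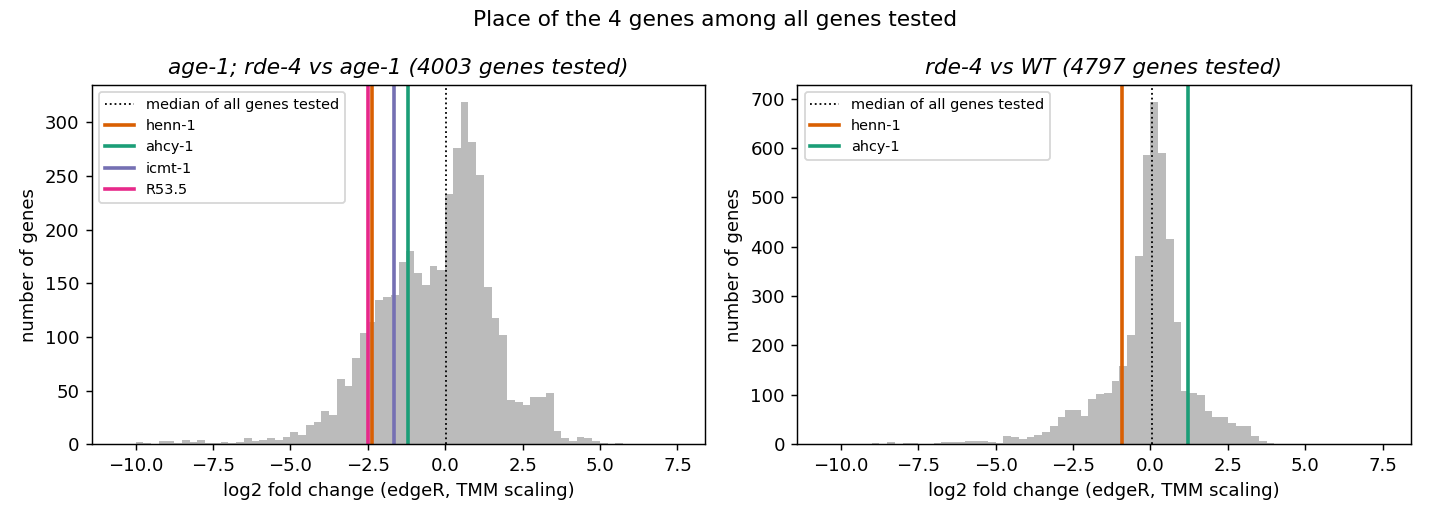
Log2 fold changes of all genes tested in age-1; rde-4 versus age-1 (4003 genes) and rde-4 versus WT (4797 genes), with colored lines at the genes of interest that were tested and a dotted line at the median. In the first panel the 4 lines lie on the falling side at -2.50 to -1.22, and in the second ahcy-1 lies at 1.21 and henn-1 at -0.91.

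A comparison that shares no library with the one that chose the genes is age-1; rde-4 versus rde-4, which asks whether the age-1 mutation changes these small RNAs when RDE-4 is missing. For none of the 4 genes did a difference pass an adjusted test, and icmt-1 was higher in the double mutant with TMM. ahcy-1, the 1 gene with enough reads to be tested, had a log2 fold change of 0.78 (SE 0.45, 95% interval -0.16 to 1.72, edgeR adjusted p = 0.418), where 32 of 3581 genes (0.894%) were called. With library totals it was -0.05 (adjusted p = 0.924), and 27.6% of genes were called, nearly all lower. With the replicate block it was 0.83, with a 95% interval of 0.028 to 1.63 that excluded 0 (edgeR unadjusted p = 0.0424, adjusted p = 0.242). Of all genes, 5.11% were called with the block. The interval with TMM reaches 1.72, so that it does not show ahcy-1 to be alike in both strains.

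The 3 other genes rest in this comparison on 12 to 31 summed counts per gene in age-1; rde-4 and 13 to 18 in rde-4. Ratios per library total were 1.58 for icmt-1 (counting interval 0.845 to 3.03), 0.930 for R53.5 (0.406 to 2.15) and 0.576 for henn-1 (0.253 to 1.26). The ratio for ahcy-1 was 0.947 (0.681 to 1.32).

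For icmt-1 the distance between these strains depended on the scaling. In TMM-scaled CPM its libraries were at 9.38, 5.13 and 5.45 in age-1; rde-4, against 2.24, 3.18 and 0.672 in rde-4. On this scale the groups did not overlap, but in raw counts and with both other scalings they did. How many of all genes were separated in this way was not counted. Too low for the filter of this comparison, icmt-1 had a log2 fold change of 1.69 in the fit of all 12 libraries (SE 0.61, 3.22-fold). That fit also holds the age-1 and WT libraries that chose the genes, so no p is given from it. The value was 1.47 without a filter on low counts (edgeR unadjusted p = 0.0157, adjusted p = 0.585) and 1.61 with DESeq2 (unadjusted p = 0.0398, no adjusted value given).

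Set against WT, the double mutant kept different amounts of these small RNAs depending on the gene and on the scaling. WT is again the low side of the comparison that chose the genes, so a higher value is favored here too and no test is given for the 4 genes. ahcy-1 was 4.58-fold higher in age-1; rde-4 with TMM (log2 fold change 2.19, SE 0.39), but the log2 value was 0.79 with library totals and 1.13 with counts opposite miRNA genes. henn-1 had a log2 fold change of -0.61 with TMM (SE 0.53) and -1.93 with library totals. In this comparison 1098 of 3977 genes (27.6%) were called with TMM, 590 (14.8%) higher and 508 (12.8%) lower, and 71.4% with library totals, 63.3% lower. The median over all genes was -0.02 with TMM and -1.40 with library totals.

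For icmt-1 the double mutant had 31 summed counts and WT 10. The ratio per library total was 2.76, with a counting interval of 1.32 to 6.32. All 3 double mutant libraries stood above all WT libraries in each scaling, but how many of all genes did so was not counted. By DESeq2 the log2 fold change of icmt-1 was 2.84. R53.5 had 14 summed counts in the double mutant and 20 in WT, a ratio of 0.624 (0.292 to 1.30). In rank by level per kilobase within the double mutant, ahcy-1 stood above 83.0% of the 3874 genes, icmt-1 above 72.1%, R53.5 above 56.9% and henn-1 above 31.5%. In rde-4 the same ranks were 72.7%, 32.01%, 32.4% and 22.1%.

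How alike the 4 genes were over the 12 libraries differed by pair. Pearson correlations of TMM-scaled log2 CPM between them were 0.90 for ahcy-1 and icmt-1, 0.85 for henn-1 and R53.5, 0.82 for icmt-1 and R53.5, and 0.75 for ahcy-1 and R53.5. They were lower for henn-1 with icmt-1 (0.57) and with ahcy-1 (0.54). These values describe 12 libraries that share their strains, and the libraries of 1 strain are not independent points.

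Among about 1990 genes with a mean of at least 5 TMM-scaled CPM and no opposite-strand exon, those most like henn-1 by Pearson correlation were M05D6.1 (Pearson 0.94, Spearman 0.94), T09A12.1 (0.93, 0.62) and syx-5, a syntaxin (0.93, 0.80). By Spearman correlation T09A12.1 ranked 604 and syx-5 96, so that their place in this order holds by Pearson correlation only. By Pearson correlation, most like ahcy-1 were irld-14 (0.91, 0.87), icmt-1 itself (0.90, 0.89) and the protein kinase gene kin-31 (0.90, 0.90). Most like icmt-1 were F26B1.5 (0.93, 0.94), the kinase gene kin-24 (0.93, 0.92) and K05F1.8 (0.91, 0.92). Most like R53.5 were F49E11.7 (0.95, 0.87), C31H1.1 (0.94, 0.85) and dnj-16, of the DnaJ chaperone family (0.93, 0.83).

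Other enzymes of the methyl cycle were examined beside ahcy-1, in a list of 15 genes that make, use and recycle S-adenosylmethionine and homocysteine. In age-1; rde-4 versus age-1, 8 were tested, ahcy-1 among them. Of the 7 others, sams-4, sams-5 and cth-2 fell and cbs-2 rose, so that 4 of 7 were called beside 49.1% of all genes. The median log2 fold change of the list was -0.69 with ahcy-1 and -0.17 without it, and that of all genes 0.02. In rde-4 versus WT, 6 were tested beside ahcy-1, of which sams-4 and cth-2 fell and cbs-2 rose, 3 of 6 beside 26.7% of all genes (median -0.49 with ahcy-1 and -0.57 without it, all genes 0.06). In age-1; rde-4 versus rde-4, 0 of 5 were called by edgeR, with 1 at an unadjusted p below 0.05, and DESeq2 called 0.

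cth-2, a cystathionine gamma-lyase of homocysteine removal, had the largest change of the list. Its counts were 18, 12 and 10 in age-1; rde-4, 419, 671 and 483 in age-1, 7, 11 and 9 in rde-4, and 165, 399 and 266 in WT. It fell by 3.87 on the log2 scale in age-1; rde-4 versus age-1 (SE 0.44, edgeR adjusted p = 2.88e-06) and by 4.52 in rde-4 versus WT (SE 0.45, adjusted p = 6.97e-06). Unlike the 4 genes, cth-2 had 165 or more antisense reads in each WT library, and its groups with and without RDE-4 were far apart in both backgrounds.

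sams-4, an S-adenosylmethionine synthetase, had counts of 20, 29 and 17 in age-1; rde-4, 294, 330 and 366 in age-1, 29, 33 and 29 in rde-4, and 78, 136 and 132 in WT. It fell by 2.51 in age-1; rde-4 versus age-1 (SE 0.39, edgeR adjusted p = 4.19e-05) and by 1.55 in rde-4 versus WT (SE 0.34, adjusted p = 0.00263). sams-5 fell by 1.23 in age-1; rde-4 versus age-1 (SE 0.45, adjusted p = 0.0312), lost without age-1 replicate 1 (-1.25, adjusted p = 0.0708) or 2 (-1.14, 0.103) or age-1; rde-4 replicate 2 (-1.06, 0.135). The sams genes are close copies, and reads with several hits could be counted on more than one of them.

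cbs-2, a cystathionine beta-synthase, had counts of 33, 20 and 17 in age-1; rde-4, 23, 25 and 22 in age-1, 44, 34 and 23 in rde-4, and 6, 25 and 10 in WT. The raw counts of the double mutant and age-1 overlapped. Its rise in age-1; rde-4 versus age-1 with TMM (1.42, SE 0.44, edgeR adjusted p = 0.0138) was absent with library totals (0.05, adjusted p = 0.932), and was lost without age-1; rde-4 replicate 1 (0.80, adjusted p = 0.172). Its rise in rde-4 versus WT was 1.72 (SE 0.44, adjusted p = 0.00682) with TMM and 1.33 with library totals (adjusted p = 0.0528).

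Around henn-1, a list of 10 genes of small RNA end modification held 8 found in the tables. In age-1; rde-4 versus age-1, 5 were tested (median 0.43, all genes 0.02). Beside henn-1, 0 of 4 were called with TMM, where 49.1% of all genes were. In rde-4 versus WT, 0 of 4 were called beside henn-1, where 26.7% of all genes were (median of the 5 tested -0.10, all genes 0.06). Of 11 RNA methyltransferase genes found, 2 were tested in age-1; rde-4 versus age-1, henn-1 and another that was not called. Beside henn-1, 0 of 3 were called in rde-4 versus WT. Of 19 protein methyltransferase genes, 0 of 7 were called in age-1; rde-4 versus age-1 with TMM. With library totals 2 fell, beside 51.9% of all genes, and 0 of 10 were called in rde-4 versus WT with TMM. None of the tested genes behind these counts of 0 by edgeR had an unadjusted p below 0.05 with TMM, and DESeq2 called 0 genes in each.

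Around icmt-1, a list of 10 CAAX-processing and prenyl pathway genes had 6 tested in age-1; rde-4 versus age-1. Of the 5 beside icmt-1, 1 was called, where 49.1% of all genes were. This was fnta-1, the farnesyltransferase alpha subunit, which rose with TMM (1.38, SE 0.46, edgeR adjusted p = 0.0201), but not with library totals (0.04, adjusted p = 0.945). The fnta-1 counts were 12, 13 and 12 in age-1; rde-4 and 14, 10 and 13 in age-1, and its call was lost without age-1 replicate 2 (1.21, adjusted p = 0.105) or without age-1; rde-4 replicate 1, 2 or 3 (1.15, 1.36 and 1.38, adjusted p = 0.0965, 0.0735 and 0.062). The list's median was 0.42 there. In rde-4 versus WT, 0 of 5 genes of this list were called, with 0 at an unadjusted p below 0.05 and 0 by DESeq2 (median 0.23). Of 13 genes of prenylated proteins, the kind of protein that ICMT enzymes methylate, 0 of 3 were called in age-1; rde-4 versus age-1 with TMM. With library totals 2 fell, beside 51.9% of all genes, and 0 of 4 were called in rde-4 versus WT with TMM. By unadjusted p below 0.05 with TMM these were 0 and 1 genes, and DESeq2 called 0 in both.

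**Figure D4:**
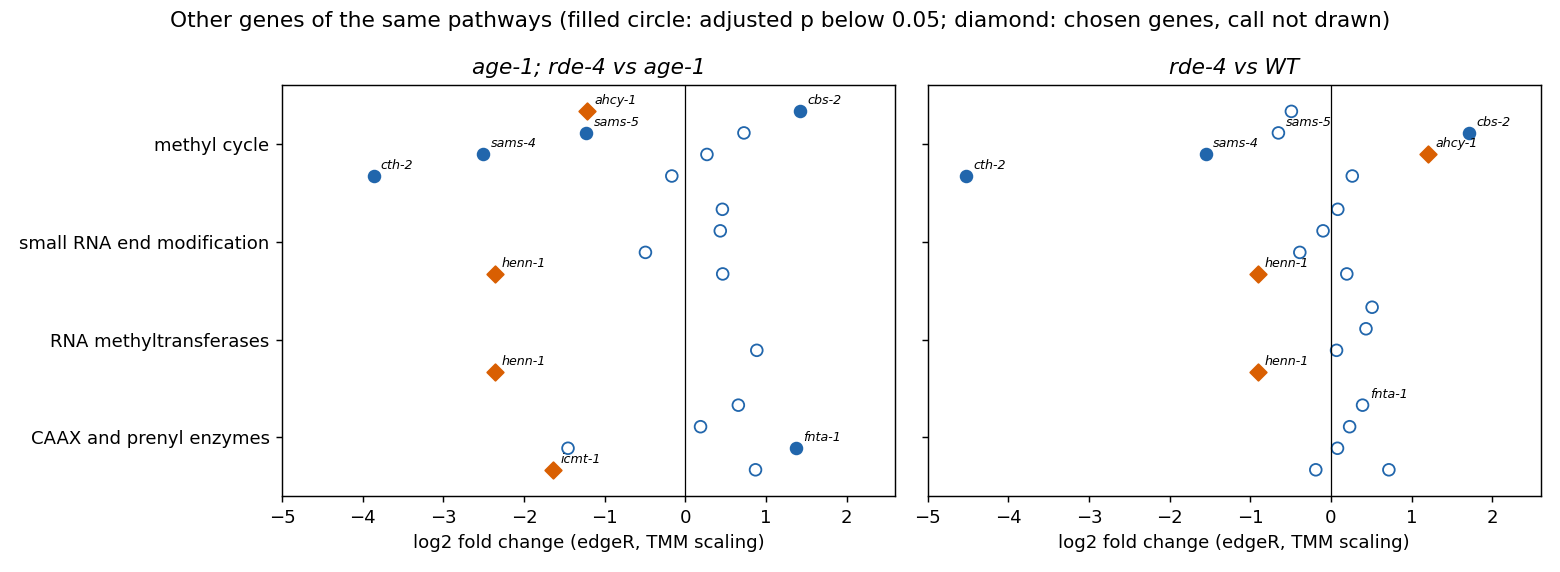
Log2 fold changes (edgeR, TMM) of the tested genes of 4 pathway lists in age-1; rde-4 versus age-1 and in rde-4 versus WT, 1 point per gene, filled where the adjusted p was below 0.05, with orange diamonds for henn-1, ahcy-1 and icmt-1, whose calls are not drawn. In the first panel the methyl cycle row runs from cth-2 at -3.87 to cbs-2 at 1.42, with 4 of its 7 other genes filled, where 49.1% of all genes were called.

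Genes of the primary siRNA pathway itself also carry antisense small RNAs. Of 14 listed, 7 were tested in age-1; rde-4 versus age-1, where alg-3 (-1.99, SE 0.46, edgeR adjusted p = 0.00165) and alg-4 (-2.55, SE 0.42, adjusted p = 8.32e-05), the spermatogenesis Argonautes, fell. Of all genes, 30.0% fell and 19.1% rose there. eri-6, a helicase gene, rose there with TMM (0.91, SE 0.36, adjusted p = 0.044) but not with library totals (-0.43, adjusted p = 0.306). In rde-4 versus WT, 8 were tested and alg-3 (-1.25, SE 0.35, adjusted p = 0.0131) and alg-4 (-1.20, SE 0.38, adjusted p = 0.0277) fell. The alg-3 call was lost without rde-4 replicate 2 (-1.22, adjusted p = 0.0684), and the alg-4 call without WT replicate 1 (-1.05, adjusted p = 0.0985), WT replicate 2 (-1.20, 0.0706) or rde-4 replicate 2 (-0.92, 0.18). The log2 fold change in that comparison was -0.91 for henn-1 and 1.21 for ahcy-1.

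Marker lists of other cells gave few testable genes. Of 7 oocyte markers, 3 were tested in age-1; rde-4 versus age-1, of which 1 fell by edgeR, beside 30.0% of all genes, but 0 by DESeq2. In rde-4 versus WT, 0 of 3 were called, with 0 at an unadjusted p below 0.05 and 0 by DESeq2. Of 5 muscle markers, 0 had enough reads for edgeR in age-1; rde-4 versus age-1. DESeq2 tested 5 there and called 1 higher (median 1.03), beside 6.15% of the genes to which it gave an adjusted p. By edgeR 1 of 2 rose in rde-4 versus WT with TMM, beside 10.8% of all genes, but 0 with library totals or by DESeq2. None of 7 intestine, 5 neuron and 6 cuticle markers had enough reads to be tested by edgeR in either comparison, and DESeq2 called 0 of them.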

How the data were processed

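Small RNA libraries of 4 strains (3 each) were read as single-end 50 bp reads. Using QuasR with Bowtie and at most 50 hits, the authors mapped them to WBcel235 (WS283, annotated by RefSeq) and deposited raw counts per gene of reads on the opposite strand, in 3 tables of 32238 genes. Versions of these tools: not given in the sources used here. WT and age-1 columns stand in 2 tables each, with 0 differing values in 6 repeated columns, and were used a single time. No gene name was missing (0 entries), and 0 columns were left unused.

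Each comparison was fitted on its 6 libraries by the quasi-likelihood test of edgeR 4.0.16, R 4.3.3 (TMM, filterByExpr, two-sided, Benjamini-Hochberg, threshold 0.05), tested on simulated data first. SEs derive from the F statistic. Levels are CPM of all antisense counts or TMM-scaled CPM over 12 libraries. Sums below the filter were compared as ratios with exact binomial 95% intervals. Overlaps with opposite exons used Ensembl release 115, in which 30539 genes were placed.

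The genes and lists were chosen with earlier results of these data known. No p is given for the 4 genes where age-1 or WT libraries enter, since those libraries chose them. Named genes were the 4 genes, the 3 most correlated with each (prior count 2, mean of at least 5 CPM), their neighbors, and up to 3 genes per list of smallest adjusted p in rde-4 versus WT or age-1; rde-4 versus rde-4. sams-5, fnta-1 and eri-6 were named after their values were seen, and not every gene the rule took is described. Listed symbols not matched to an entry were left out.

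Same-numbered libraries deviated together in rde-4 versus WT (r = 0.294, 0.167 and 0.366) and age-1 versus WT (0.310, 0.194 and 0.344). In age-1; rde-4 versus age-1 (0.182, -0.157 and 0.143) and the other comparisons they share a number. The main fits held no replicate block in any comparison, so their SEs, intervals and calls leave this pairing out. The block was fitted as an alternative. Alternatives were RLE factors, library totals, counts opposite miRNA genes as library size, no filter, DESeq2 1.42.0, a fit of 12 libraries, the replicate block, leaving out each library, and removing genes with an opposite-strand exon. No molecular identifiers are named, so intervals cover counting error only.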

Additional observations from a re-analysis of the deposited data

How the results depend on the processing

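Over the counts of calls and the fold changes of the 4 genes, 202 alternative values kept their call, 29 lost it or shrank, 13 gained it or grew and 1 moved, with 0 reversed. Where age-1 or WT libraries enter, such calls of the 4 genes only track the setting, since those libraries chose the genes. One further value, ahcy-1 in age-1; rde-4 versus rde-4 with library totals, changed sign without a call. The cause was not tested except where fewer genes or libraries entered. Scaling by library totals gave 989 called genes in age-1; rde-4 versus rde-4, 170 in age-1 versus WT and 2838 in age-1; rde-4 versus WT, and moved henn-1 to -1.93 and ahcy-1 to 0.79 in the last. Counts opposite miRNA genes gave 318 and 2049 called genes in age-1; rde-4 versus rde-4 and age-1; rde-4 versus WT, and ahcy-1 at 1.13 in the second of these. No filter gave 69 and 930 calls, and DESeq2 82 and 903, in age-1; rde-4 versus rde-4 and age-1 versus WT. Removal of genes with an opposite-strand exon left 692 calls in rde-4 versus WT, 1295 in age-1; rde-4 versus age-1, 7 in age-1; rde-4 versus rde-4 and 508 in age-1; rde-4 versus WT, with ahcy-1 at -0.90 in age-1; rde-4 versus age-1. henn-1 and R53.5 have no value there. ahcy-1 in rde-4 versus WT was 1.21 with RLE factors, 0.85 with totals, 1.04 by miRNA-opposite counts and 1.11 without a filter. It was 1.12 with DESeq2, 1.22 with 12 libraries and 1.09 with the replicate block, all given without a test.

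With the replicate block, 183 genes were called in age-1; rde-4 versus rde-4 and 1956 in age-1 versus WT. It changed no call of the 4 genes. eri-6, which rose in age-1; rde-4 versus age-1 with TMM, was at -0.43 with totals and -0.24 by miRNA-opposite counts. Leaving out 1 library gave 1035 to 1307 calls in rde-4 versus WT, with ahcy-1 at 0.67 to 1.53 and henn-1 at -1.31 to -0.45. It gave 1579 to 2284 calls in age-1; rde-4 versus age-1, with henn-1 at -2.60 to -2.01, ahcy-1 -1.55 to -1.03, icmt-1 -2.11 to -1.39 and R53.5 -3.40 to -2.20. In age-1; rde-4 versus rde-4 there were 8 to 49 calls, with ahcy-1 at 0.48 to 1.34, and in age-1; rde-4 versus WT 884 to 1220, with henn-1 at -0.86 to -0.15 and ahcy-1 at 2.04 to 2.44. In age-1 versus WT there were 9 to 1925 calls, with henn-1 at 1.23 to 2.08, ahcy-1 3.15 to 3.48, icmt-1 3.98 to 4.80 and R53.5 2.78 to 3.34. With 2 to 9 reads of icmt-1 or R53.5 in the rde-4 libraries, depth limits what can be said of them without age-1 libraries.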

Other observations

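Genes next to 2 of the genes of interest also carried antisense small RNAs. C02F5.5 lies 1568 bases beyond henn-1 on the same strand. Its counts were 16, 6 and 16 in age-1; rde-4, 209, 302 and 181 in age-1, 20, 22 and 16 in rde-4, and 91, 166 and 89 in WT. It fell by 2.77 on the log2 scale in age-1; rde-4 versus age-1 (SE 0.45, edgeR adjusted p = 6.83e-05) and by 2.20 in rde-4 versus WT (SE 0.38, adjusted p = 0.000375). Its value in age-1 versus WT was 0.71 (SE 0.35, adjusted p = 0.144), and 1.00 without age-1 replicate 3 (adjusted p = 0.0363).

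F21F3.2 lies 187 bases beyond icmt-1 on the same strand. Its counts were 16, 3 and 11 in age-1; rde-4, 138, 149 and 124 in age-1, 19, 18 and 8 in rde-4, and 23, 63 and 39 in WT. It fell by 2.35 in age-1; rde-4 versus age-1 (SE 0.48, edgeR adjusted p = 0.00061), and its value in rde-4 versus WT was -1.05 (SE 0.41, adjusted p = 0.0735), or -1.42 with library totals (adjusted p = 0.0305). In age-1 versus WT it rose by 1.46 (SE 0.34, adjusted p = 0.0310). That rise no longer passed when WT replicate 1 (1.33, adjusted p = 0.0908) or 3 (1.43, 0.0704), or age-1 replicate 1 (1.46, 0.0913) or 2 (1.43, 0.128), was left out. In WT, F21F3.2 had 125 reads in all, where icmt-1 had 10.

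The neighbors of ahcy-1 and R53.5 carried few reads. dpf-3, 213 bases from ahcy-1, had 9 reads in all in age-1; rde-4, 30 in age-1, 20 in rde-4 and 23 in WT. aakg-5, 546 bases from R53.5, had 12, 24, 21 and 19 in the same order of strains. Neither approached the counts of its neighbor in age-1, 494 for ahcy-1 and 209 for R53.5.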
